A study of Arabidopsis thaliana with 24 samples.

Results

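In Arabidopsis thaliana seedlings under osmotic shock, 73 of 18240 genes in the table (0.400%) were higher in PEG than in water in root and in shoot at each of 3 times. They were chosen on the normalized count, which is the deposited count of a gene divided by a factor for its library. For each group the mean of log2(normalized count + 1) was taken over 3 libraries. A gene was kept when it stood at least 1 above the water group of its own organ, a factor of 2 on this scale, at 1, 2 and 3 h in both organs, and when its mean normalized count was at least 10 at PEG 3 h in each organ. The values against water therefore chose the 73 genes and are given below as a description, with no test. Of the 18240 genes, 8196 passed the level floor in both organs, 328 were at least 1 above water at every time in root with the root floor, and 380 in shoot with the shoot floor. The 73 genes were 22.3% of the root list and 19.2% of the shoot list.

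The groups were roots and shoots of wild-type Columbia-0 seedlings, 7 days old, held for 1, 2 or 3 h in 30% (w/v) PEG, polyethylene glycol with a mean molecular weight of 8000, or for 1 h in water. This solution had a water potential of -2.0 MPa, which draws water out of the tissue without entering it. Each of the 8 groups had 3 libraries, and each biological replicate pooled 30 to 50 seedlings whose roots and shoots were parted after treatment. Transcripts were counted by MARS-seq, a method that reads the 3′ ends of mRNA. Water was sampled at 1 h only, so a change with time in the solution cannot be told apart from an effect of PEG at 2 and 3 h. In RNA of whole organs, fewer cells of a type and less RNA per cell cannot be told apart.

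Plants answer loss of water through abscisic acid (ABA), a hormone made from carotenoids by a cleavage that NCED enzymes carry out. ABA bound to its receptors blocks clade A protein phosphatases 2C (PP2C), which frees SnRK2 kinases to phosphorylate bZIP factors that bind the ABA-responsive element. A branch that needs no ABA runs through CBF and DREB factors, which bind the dehydration-responsive element, and NAC, heat shock and zinc finger factors act beside both. Genes of early signalling often answer in many tissues, while protective proteins such as dehydrins and LEA proteins tend to follow the factors that drive them.

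Library totals ran from 1332586 to 5495746 counts in root and from 343397 to 4009409 in shoot, and 2 of the 24 libraries stood apart as small, at 1332586 (root PEG 1 h replicate 3) and 343397 counts (shoot PEG 2 h replicate 2). In the smallest, 3 counts correspond to 25.03 normalized counts, so a 0 there allows a level up to that value, counting error only. All 10 shoot markers were lower in every root library than in every shoot library, with summed normalized counts of 1256 to 2509 in root and 173742 to 241179 in shoot. Of 9 root markers in the table, 7 were higher in every root library than in every shoot library, with sums of 1499 to 6354 in root and 64.1 to 175 in shoot. Several libraries ranked differently on the 73 genes than on the 8196 genes past the level floor. The widest gap was that of shoot PEG 1 h replicate 3, the highest of its 3 replicates for 56 of the 73 (76.7%) and for 28.5% of genes past the floor. Next came root PEG 2 h replicate 3, the lowest for 47 (64.4% and 29.9%), and shoot PEG 3 h replicate 3, the lowest for 46 (63.0% and 31.2%). At shoot PEG 1 h the median difference from water of the 73 genes was 2.28 in replicate 3, 1.73 in replicate 1 and 1.57 in replicate 2. The library codes carry a digit that follows the groups in part. Root PEG 2 h and 3 h shared no digit with root water, and root PEG 1 h held both of these digits. Shoot PEG 3 h shared none with shoot PEG 1 h or shoot water, and shoot PEG 2 h held both of these. Root water and shoot water also differed. Some fits named further on hold the digit as a term.

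Across the 73 genes the median difference from water was 1.92, 2.16 and 2.57 (log2) at 1, 2 and 3 h in root and 1.84, 2.29 and 2.605 in shoot. Leaving out any 1 PEG library kept these medians within 1.85 to 2.11, 2.105 to 2.199 and 2.53 to 2.69 in root, and within 1.65 to 1.99, 2.08 to 2.29 and 2.599 to 2.72 in shoot. The medians over all genes lay between -0.12 and 0.06. The smallest of the 6 differences fell at root 1 h for 24 genes and at shoot 1 h for 18, and the largest fell at shoot 3 h for 30 genes and at root 3 h for 24. Without shoot PEG 1 h replicate 3 the smallest fell at shoot 1 h for 33 genes and at root 1 h for 15. In root, 45 genes had their highest PEG mean at 3 h, 11 at 2 h and 17 at 1 h. In shoot the numbers were 53, 16 and 4. The mean was higher at each later time for 35 genes in root and 41 in shoot, and lower at each later time for 16 in root and 2 in shoot. Together the 73 genes took a median of 0.245% of the counts in root water, 1.01% at PEG 1 h, 1.25% at 2 h and 1.47% at 3 h, and 0.204%, 0.654%, 0.910% and 1.19% in shoot.

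Without shoot PEG 1 h replicate 3 the shoot difference at 1 h was lower for 62 of the 73 genes and higher for 11, by a median of -0.17 (log2), and 65 genes stood at least 1 above water at that time. The 8 below were AT3G03341 (0.07), AT5G05220 (0.28), AT4G33930 (0.63), NF-YB2 (0.83), RD26 (0.86), ACHT4 (0.89), AT2G44130 (0.89) and HAI1 (0.97). The shoot mean was then higher at each later time for 48 genes and lower at each later time for 3. The shoot 1 h differences given for single genes below hold all 3 libraries.

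All 3 PEG libraries lay above all 3 water libraries for 73, 73 and 72 of the 73 genes at 1, 2 and 3 h in root, where 10.2%, 14.2% and 18.5% of all genes did so. In shoot this held for 69, 65 and 73 genes, against 10.1%, 10.8% and 16.7% of all genes, and it held in all 6 comparisons for 61, where 0.91% of all genes did so. Without shoot PEG 1 h replicate 3 it held for 69 genes at shoot 1 h (13.3% of all genes) and in all 6 comparisons for 61 (0.921%). A fit over all genes with edgeR's quasi-likelihood test called 70, 71 and 73 of them higher in root, against 11.5%, 12.7% and 21.1% of all genes tested, and 64, 68 and 73 in shoot, against 4.25%, 8.19% and 14.5%. Without that library 60 were called at shoot 1 h, against 2.42%. The same contrasts chose the genes, so nothing is read from these counts. Just inside the threshold stood MYC2 with a smallest difference of 1.00 (root 1 h), SZF1 with 1.01 (shoot 3 h) and AT3G03341 with 1.05 (shoot 1 h). Just outside stood CRF3 with 0.997 (root 2 h), AT5G15260 with 0.978 (shoot 1 h) and AT3G55840 with 0.973 (root 3 h).

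**Figure D1:**
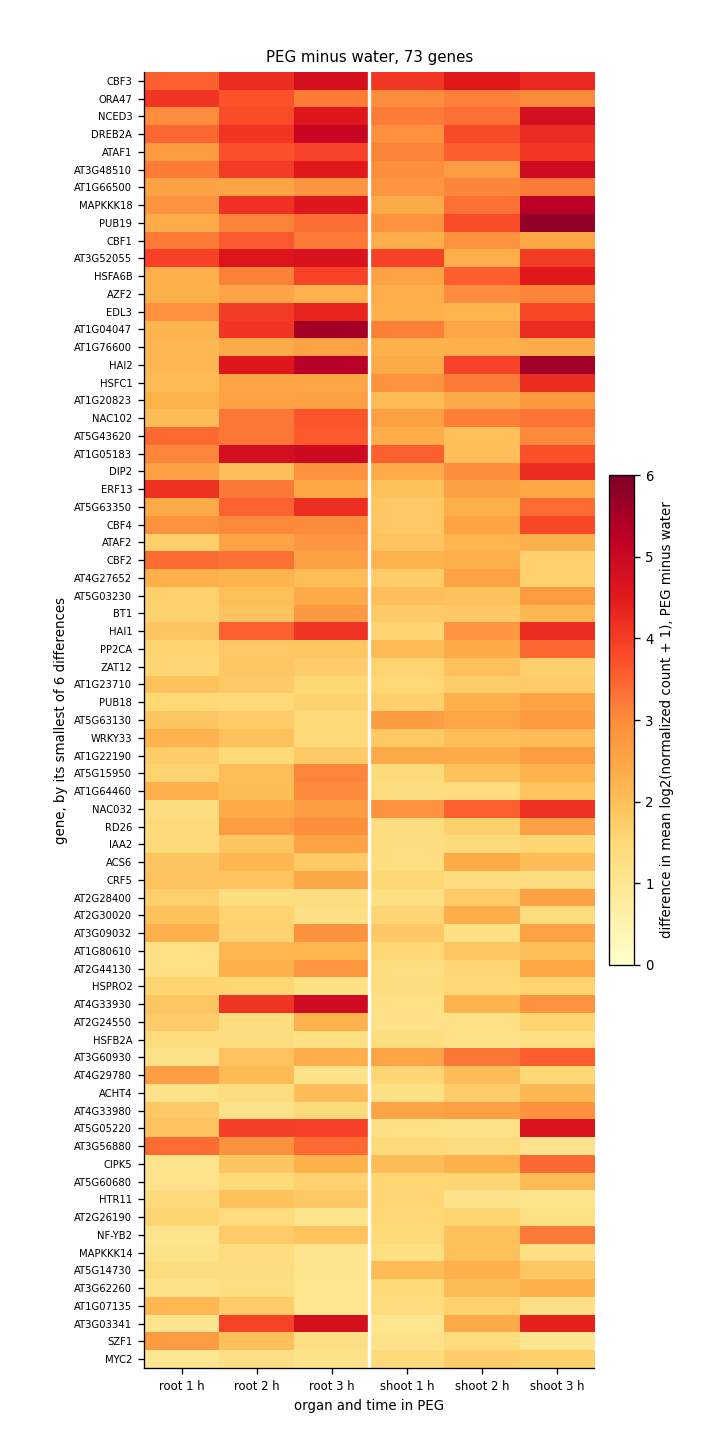
Differences of the 73 genes from water. Each row is a gene, ordered by its smallest difference, each column an organ and time in PEG, and the colour is the PEG minus water difference in mean log2(normalized count + 1). CBF3 at the top has a smallest difference of 3.52 and MYC2 at the bottom one of 1.00.

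Of 254 genes in the table that belong to 22 lists of known role, 29 were among the 73. They came from NAC factors (5 of 14 in the table), CBF and DREB factors (5 of 13), clade A PP2C phosphatases (3 of 8), heat shock factors (3 of 6), ERF factors (2 of 15), C2H2 zinc fingers (2 of 10) and ubiquitin ligases (2 of 8). A single gene came from each of the lists for ABA metabolism, ABA signal transduction, calcium and kinase signalling, WRKY factors, singlet oxygen reporters, ethylene synthesis and JAZ and MYC genes. Several lists had no gene in the set: ABA receptors (0 of 9), COR, RD, KIN and ERD genes (0 of 18), dehydrins and LEA proteins (0 of 19), class I HD-Zip factors (0 of 10), MYB factors (0 of 9), proline and sugar metabolism (0 of 22), lipid and cuticle genes (0 of 6) and detoxification genes (0 of 7). The other 44 of the 73 belonged to none of the lists, and 34 had no gene symbol of their own in RefSeq.

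NCED3 (AT3G14440), the dioxygenase that makes the ABA precursor under drought, had 3.09, 1.66 and 2.95 in root water, 29.8, 23.2 and 27.4 at PEG 1 h, 57.8, 30.8 and 58.9 at 2 h and 85.7, 122 and 51.2 at 3 h. In shoot, NCED3 had 6.45, 5.85 and 4.33 in water, 39.0, 43.7 and 118 at PEG 1 h, 99.0, 58.4 and 45.7 at 2 h and 186, 185 and 166 at 3 h. Every PEG library lay above every water library in both organs, and the shoot 1 h value of 118 belongs to replicate 3. The differences from water were 2.98, 3.78 and 4.55 in root and 3.20, 3.33 and 4.80 in shoot. Among the other 11 genes of ABA metabolism and transport in the table, 5 of 6 tested rose in root at 3 h and 4 of 8 in shoot, and none fell.

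Of the phosphatases in the set, 3 belong to clade A, the PP2C enzymes that hold SnRK2 kinases inactive until ABA is present. HAI1 (AT5G59220) had 8.50, 22.5 and 10.3 in root water, 73.3, 45.5 and 35.6 at PEG 1 h, 181, 158 and 132 at 2 h and 256, 286 and 177 at 3 h. In shoot, HAI1 had 2.15, 1.95 and 4.33 in water, 8.77, 4.28 and 26.7 at PEG 1 h, 23.97, 66.7 and 9.14 at 2 h and 46.0, 76.2 and 90.1 at 3 h, and the lowest PEG 1 h library overlapped the water libraries. HAI2 (AT1G07430) had 1.55, 4.16 and 0 in root water, 21.3, 6.39 and 5.48 at PEG 1 h, 63.1, 63.3 and 40.6 at 2 h and 86.4, 98.7 and 86.5 at 3 h. Its shoot values were 1.08, 0 and 4.33 in water, 9.74, 2.57 and 40.1 at PEG 1 h, 46.9, 41.7 and 16.98 at 2 h and 78.7, 130.0 and 111 at 3 h. At shoot 1 h the HAI2 libraries overlapped those in water, where the highest was 4.33. PP2CA (AT3G11410) had 239, 230.5 and 222 in root water, 846, 654 and 594 at PEG 1 h, 866, 841 and 776 at 2 h and 931, 946 and 685 at 3 h. Its shoot values were 80.6, 60.5 and 66.0 in water, 206, 259.5 and 498 at PEG 1 h, 432, 325 and 350.0 at 2 h and 773, 707 and 786 at 3 h. PP2CA differences were 1.58, 1.84 and 1.87 in root and 2.11, 2.401 and 3.44 in shoot, against 2.11, 4.56 and 5.27 in root and 2.38, 3.90 and 5.56 in shoot for HAI2. The other 5 clade A genes in the table were outside the set, and 5 of 5 tested rose in root at 3 h and 4 of 4 in shoot.

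MAPKKK18 (AT1G05100), a kinase at the head of an ABA-linked MAP kinase cascade, had 6.18, 11.6 and 8.85 in root water, 75.4, 58.3 and 71.2 at PEG 1 h, 237, 149 and 142 at 2 h and 292, 303 and 139 at 3 h. In shoot, MAPKKK18 had 1.08, 2.93 and 3.25 in water, 10.7, 10.3 and 36.5 at PEG 1 h, 42.7, 50.1 and 14.4 at 2 h and 99.2, 150.0 and 130.2 at 3 h. No PEG library of either organ overlapped its water libraries, and the 3 h values of both organs stood above those at 1 h. Of the other 14 genes of ABA signal transduction, 5 of 12 tested rose in root at 3 h and 9 of 14 in shoot, with none lower at that time. PUB19 (AT1G60190), a U-box E3 ubiquitin ligase that dampens ABA responses, had 93.5, 72.4 and 39.1 in root water, 428, 259 and 326 at PEG 1 h, 785, 579.5 and 385 at 2 h and 784, 759 and 514 at 3 h. In shoot, PUB19 had 7.53, 17.6 and 22.7 in water, 74.0, 60.8 and 309.8 at PEG 1 h, 302, 217 and 146 at 2 h and 842, 974 and 738 at 3 h. Its shoot difference at 3 h, 5.77, was the highest of all 6 comparisons over the 73 genes. Its relative PUB18 (AT1G10560) had differences of 1.49, 1.47 and 1.64 in root and 1.66, 2.29 and 2.55 in shoot. Among the 6 other ubiquitin ligases listed, 1 of 3 tested rose in root at 3 h and 1 of 5 in shoot.

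EDL3 (AT3G63060), an F-box protein that promotes ABA signalling, was in none of the lists. It had 12.4, 13.3 and 10.3 in root water, 114, 91.8 and 84.9 at PEG 1 h, 185, 225 and 209 at 2 h and 339.7, 249 and 216 at 3 h. In shoot, EDL3 had 5.38, 2.93 and 7.57 in water, 16.6, 28.3 and 47.2 at PEG 1 h, 29.2, 16.7 and 37.9 at 2 h and 70.2, 112 and 77.2 at 3 h, with every PEG library above every water library. The 16.7 at 2 h belongs to the smallest library, where 3 counts correspond to 25.03. It thus rests on fewer than 3 counts. CIPK5 (AT5G10930), a kinase steered by calcineurin B-like calcium sensors, had differences of 1.12, 1.85 and 2.27 in root and 2.05, 2.29 and 3.43 in shoot. Of the 15 other calcium and kinase genes listed, 5 of 13 tested rose and 2 fell in root at 3 h, while 9 of 15 rose and 1 fell in shoot.

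**Figure D2:**
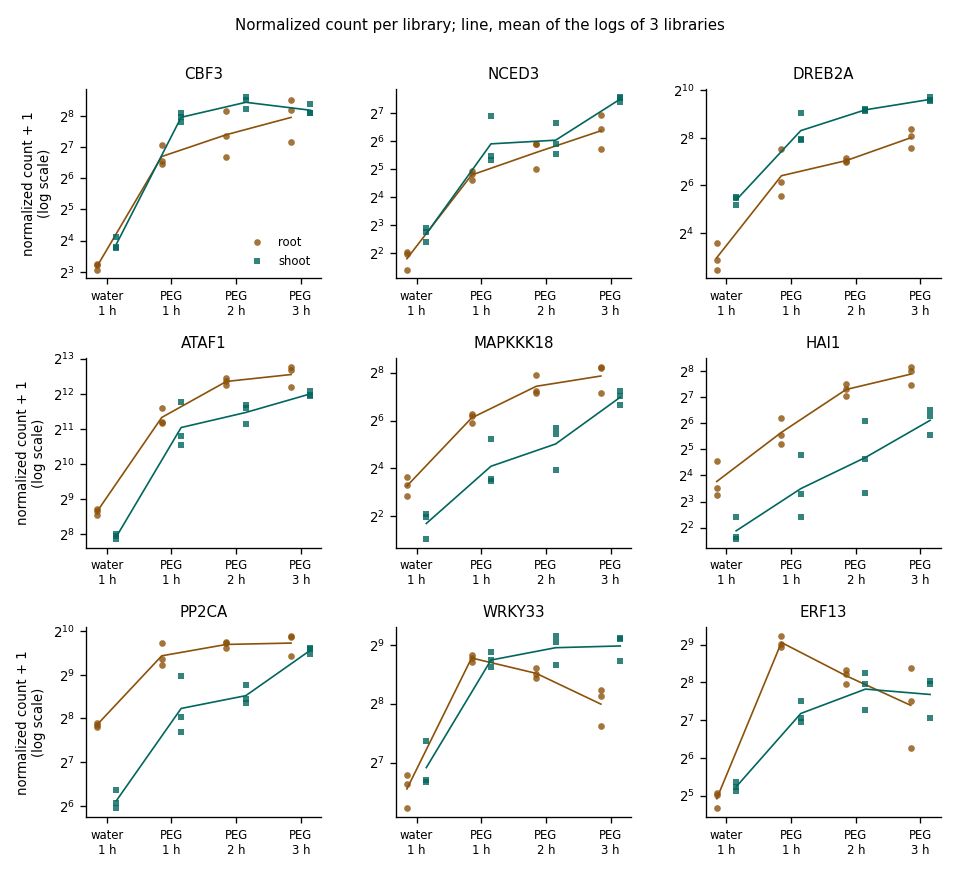
Normalized count + 1 (log scale) of 9 genes by group, with 1 point per library, roots as brown circles and shoots as green squares, and lines through the means of the logs of 3 libraries. CBF3, NCED3 and DREB2A stand far above water in both organs at 1 h, HAI1 and MAPKKK18 are higher at 3 h than at 1 h, and root WRKY33 and ERF13 are lower at 3 h than at 1 h.

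CBF3 (AT4G25480, DREB1A), a factor that binds the dehydration-responsive element and is best known from cold, had the largest smallest difference of the set. It had 8.50, 8.32 and 7.37 in root water, 133, 92.6 and 87.6 at PEG 1 h, 285, 163 and 100.5 at 2 h and 361, 291 and 141 at 3 h. In shoot, CBF3 had 12.9, 12.7 and 16.2 in water, 271, 224 and 247 at PEG 1 h, 295, 384 and 360.4 at 2 h and 328, 271 and 270.2 at 3 h. The lowest PEG library, 87.6 in root at 1 h, was far above the highest water library, 16.2 in shoot. Its close copies CBF1 (AT4G25490) and CBF2 (AT4G25470) lie beside it on chromosome 4, 2379 and 1774 bases away in RefSeq, and reads from near-identical stretches could be split among them. CBF1 differences were 3.22, 3.62 and 3.23 in root and 2.34, 2.88 and 2.44 in shoot, and those of CBF2 were 3.39, 3.31 and 2.61 in root and 2.22, 2.31 and 1.65 in shoot. CBF2 means were 844, 806 and 530.2 normalized counts at 1, 2 and 3 h in root and 636, 676 and 416 in shoot, lowest at 3 h in both organs.

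CBF4 (AT5G51990), the drought-responsive relative of these factors, had 10.05, 10.8 and 5.90 in root water, 91.4, 57.5 and 68.4 at PEG 1 h, 83.0, 79.9 and 76.1 at 2 h and 102, 78.6 and 58.2 at 3 h. In shoot, CBF4 had 1.08, 2.93 and 5.41 in water, 11.7, 5.996 and 25.8 at PEG 1 h, 18.8, 16.7 and 30.0 at 2 h and 54.5, 58.6 and 43.9 at 3 h. DREB2A (AT5G05410), which serves dehydration and heat, had 6.18, 10.8 and 4.42 in root water, 69.1, 181 and 46.5 at PEG 1 h, 141, 127 and 124 at 2 h and 189.5, 327 and 270.0 at 3 h. In shoot, DREB2A had 43.0, 35.1 and 44.4 in water, 245, 242 and 529 at PEG 1 h, 599, 567 and 575 at 2 h and 775, 834 and 754 at 3 h. DREB2A was higher in shoot than in root in water as in PEG, and its root difference at 3 h was 5.06. Of the other 8 CBF and DREB genes tested, 2 rose and 3 fell in root at 3 h, while 5 rose and 1 fell in shoot.

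All 5 NAC factors of the set are stress-responsive members of that plant-specific family. ATAF1 (AT1G01720) had 417, 404 and 374 in root water, 3102, 2338 and 2316 at PEG 1 h, 5252, 5546 and 4889 at 2 h and 6994, 6545 and 4693 at 3 h. In shoot, ATAF1 had 230.1, 243 and 254 in water, 1497, 1761 and 3504 at PEG 1 h, 3258, 3079 and 2253 at 2 h and 4322, 3997 and 3949 at 3 h. Its mean over both PEG 3 h groups, 5083 normalized counts, was the highest of the 73, in counts per gene that are not divided by length. NAC102 (AT5G63790) had differences of 2.02, 3.27 and 3.68 in root and 2.62, 3.17 and 3.30 in shoot, ATAF2 (AT5G08790) had 1.68, 2.57 and 2.80 in root and 1.904, 2.19 and 2.26 in shoot, and RD26 (AT4G27410) had 1.44, 2.66 and 2.95 in root and 1.32, 1.65 and 2.605 in shoot. NAC032 (AT1G77450) had 1140.3, 1147 and 701 normalized counts at root PEG 3 h and 161, 132 and 172 in root water. In shoot it had 587, 634 and 644 at PEG 3 h and 32.3, 34.1 and 34.6 in water. Of the other 9 NAC genes listed, 3 of 4 tested rose in root at 3 h and 8 of 9 in shoot.

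The set held 3 heat shock factors. HSFA6B (AT3G22830), a class A activator tied to ABA, had 0.773, 0 and 0.737 in root water, 4.25, 9.58 and 5.48 at PEG 1 h, 9.46, 13.3 and 13.2 at 2 h and 15.5, 49.1 and 11.7 at 3 h. In shoot, HSFA6B had 1.08, 1.95 and 2.16 in water, 10.7, 11.99 and 24.9 at PEG 1 h, 31.3, 25.03 and 35.3 at 2 h and 37.5, 73.8 and 79.5 at 3 h. HSFC1 (AT3G24520) had differences of 2.097, 2.52 and 2.49 in root and 2.88, 3.20 and 4.24 in shoot, and HSFB2A (AT5G62020), of the repressor class B, had 1.39, 1.32 and 1.27 in root and 1.35, 1.18 and 1.26 in shoot, the narrowest spread over the 6 comparisons among these 3. The other 3 listed factors in the table all rose in root at 3 h, and 1 of 2 tested rose in shoot.

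ORA47 (AT1G74930), an ERF that switches on jasmonate synthesis genes, had 6.96, 6.66 and 7.37 in root water, 165, 149 and 98.6 at PEG 1 h, 118, 109 and 85.2 at 2 h and 150.2, 48.1 and 52.8 at 3 h. In shoot, ORA47 had 9.68, 15.6 and 17.3 in water, 95.5, 89.1 and 189.6 at PEG 1 h, 131, 125 and 135 at 2 h and 151, 136 and 84.0 at 3 h. Its root difference was largest at 1 h, and its shoot means were 125, 130.3 and 124 at 1, 2 and 3 h. ERF13 (AT2G44840) had differences of 4.14, 3.26 and 2.47 in root and 1.94, 2.59 and 2.45 in shoot. AZF2 (AT3G19580) and ZAT12 (AT5G59820), C2H2 zinc fingers that repress or tune stress genes, had differences of 2.25, 2.53 and 2.23 in root and 2.32, 3.00 and 3.10 in shoot for AZF2 and 1.56, 1.87 and 1.73 in root and 1.60, 1.97 and 1.68 in shoot for ZAT12. Of the other 13 ERF genes tested, 7 rose and 3 fell in root at 3 h and 10 rose in shoot. Of the other 8 zinc fingers in the table, 3 of 6 tested rose and 2 fell in root at 3 h, and 4 of 8 rose and 3 fell in shoot.

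WRKY33 (AT2G38470), a factor of defence against necrotrophs, had 109.8, 99.0 and 73.7 in root water, 455, 438 and 419 at PEG 1 h, 344, 361 and 389.7 at 2 h and 299, 279 and 196 at 3 h. In shoot, WRKY33 had 101, 165 and 103 in water, 468, 425 and 391 at PEG 1 h, 529, 400.5 and 567 at 2 h and 556, 544 and 423 at 3 h. Root values were lower at each later time, but the lowest at 3 h, 196, was still above the highest in water, 109.8. SZF1 (AT3G55980), a salt-induced CCCH zinc finger listed among singlet oxygen reporters, had differences of 2.70, 1.98 and 1.26 in root and 1.18, 1.39 and 1.01 in shoot. MYC2 (AT1G32640), the central jasmonate bHLH factor, had 1.00, 1.26 and 1.15 in root and 1.46, 1.74 and 1.65 in shoot, and ACS6 (AT4G11280), an ACC synthase of the ethylene synthesis list, had 1.89, 2.14 and 1.79 in root and 1.31, 2.37 and 2.03 in shoot. Among the genes of these lists outside the set, 3 of 8 WRKY genes tested rose and 2 fell in root at 3 h, and 1 of 2 singlet oxygen reporters and 3 of 5 JAZ and MYC genes rose with none lower. In shoot at 3 h, 5 of 13 WRKY genes, 1 of 2 reporters and 3 of 8 JAZ and MYC genes rose. For ethylene synthesis, 0 of 4 rose and 1 fell in root, and 0 of 6 rose and 2 fell in shoot.

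The lists without a gene in the set included the protective genes of the COR, RD, KIN and ERD list and of the dehydrin and LEA list. In root, 0, 4 and 3 of 12 COR, RD, KIN and ERD genes tested rose at 1, 2 and 3 h, while 3, 2 and 2 fell. In shoot, 0, 5 and 11 of 18 rose and none fell. Of dehydrin and LEA genes, 1, 5 and 6 of 16 rose in root and 6, 2 and 4 fell, against 1, 7 and 11 of 13 that rose in shoot. Class I HD-Zip factors rose in 1, 6 and 7 of 10 in root, where 1 fell at each time, and 1, 5 and 5 of 7 in shoot. ABA receptors fell in 3, 4 and 4 of 8 in root and in 4, 4 and 5 of 9 in shoot, where 0, 3 and 3 rose. In root 0, 0 and 2 receptors rose. MYB factors rose in 4, 5 and 4 of 5 tested in root and 2, 2 and 2 of 5 in shoot. Proline and sugar genes rose in 2, 7 and 9 of 16 in root and 5, 7 and 12 of 20 in shoot, with 2, 1 and 1 lower in root. Detoxification genes rose in 0, 1 and 1 of 4 in root and 0, 2 and 3 of 5 in shoot. Lipid and cuticle genes rose in 0 of 5 in root at each time and in 0, 0 and 1 of 5 in shoot. Over all lists without the set's own genes, 49, 80 and 78 of 168 rose in root and 21, 19 and 25 fell, and 44, 87 and 112 of 197 rose in shoot and 5, 5 and 12 fell. Over all genes tested, 11.5%, 12.7% and 21.1% were higher in root and 9.06%, 12.3% and 19.5% lower, 20.5%, 25.1% and 40.6% in either direction. In shoot 4.25%, 8.19% and 14.5% were higher and 1.07%, 5.65% and 11.5% lower, 5.32%, 13.8% and 26% in either direction. With the set's own genes included, 99, 128 and 132 genes of the lists were called in root, but 58, 54 and 70 with a fit term for the digit of the library code.

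Among the 44 genes outside the lists, AT3G48510, annotated as AtIII18x5-like, had 8.50, 9.15 and 5.90 in root water, 73.3, 71.9 and 95.8 at PEG 1 h, 135, 127 and 156 at 2 h and 248, 254 and 123 at 3 h. In shoot, AT3G48510 had 0, 0 and 0 in water, 8.77, 3.43 and 9.79 at PEG 1 h, 14.6, 0 and 15.7 at 2 h and 19.4, 41.7 and 30.3 at 3 h. With every shoot water library at 0, a floor of 3 counts per library puts the mean at PEG 3 h at least 9.38-fold higher. The 0 at 2 h belongs to the smallest library. AT1G66500, annotated with pre-mRNA cleavage complex II, had 26.3, 20.8 and 17.7 in root water, 138, 139 and 112 at PEG 1 h, 132, 126 and 116 at 2 h and 188, 133 and 159.6 at 3 h. In shoot, AT1G66500 had 6.45, 4.88 and 10.8 in water, 54.5, 43.7 and 70.3 at PEG 1 h, 47.9, 83.4 and 75.7 at 2 h and 75.0, 77.0 and 70.4 at 3 h. Its differences were 2.54, 2.49 and 2.84 in root and 2.81, 3.09 and 3.23 in shoot. AT5G43620, 1 of the 3 genes in the table with that annotation, was in the set too, with 3.40, 3.28 and 3.59 in root and 2.33, 2.02 and 3.03 in shoot. The 250 bases before the starts of AT1G66500 and AT5G43620 share near-identical stretches. Whether the genes also share reads was not tested. AT3G52055, without a product in RefSeq, had 32.2, 25.5 and 58.7 at root PEG 3 h and 0, 0.832 and 0.737 in root water. In shoot it had 14.5, 15.2 and 15.9 at PEG 3 h and 0 in all 3 water libraries.

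Other genes outside the lists carry regulatory annotations. HSPRO2 (AT2G40000), known from basal resistance, had 4406, 4308 and 3044 normalized counts at root PEG 3 h and 1838, 1579 and 1560.4 in root water. In shoot it had 3717, 3419 and 3009 at PEG 3 h and 859, 1311 and 1191 in water. AT1G22190, an AP2-type DNA-binding protein, had differences of 1.74, 1.44 and 1.78 in root and 2.44, 2.37 and 2.70 in shoot. BT1 (AT5G63160), a BTB and TAZ domain protein, had 1.62, 1.92 and 2.73 in root and 1.79, 1.82 and 2.12 in shoot. IAA2 (AT3G23030), an Aux/IAA repressor of auxin response, had 1.41, 1.88 and 2.56 in root and 1.31, 1.41 and 1.56 in shoot, and CRF5 (AT2G46310), a cytokinin response factor, had 1.91, 1.904 and 2.44 in root and 1.51, 1.30 and 1.32 in shoot. NF-YB2 (AT5G47640), a subunit of the trimeric factor NF-Y, had 1.08, 1.76 and 1.92 in root and 1.44, 1.96 and 3.23 in shoot. Of the 11 genes in the table annotated with the domain of unknown function DUF584, 3 were in the set. They were AT5G60680, AT5G03230 and AT2G28400, with smallest differences of 1.12, 1.64 and 1.26. The phosphatases AT2G30020 and AT3G62260, outside clade A, had smallest differences of 1.25 and 1.05. HTR11 (AT5G65350), a histone H3 gene with close copies that may share its reads, had one of 1.09. ACHT4 (AT1G08570), a chloroplast thioredoxin, had 1.15, DIP2 (AT5G03210) 2.00 and MAPKKK14 (AT2G30040) 1.06. These genes of moderate rank were named for their annotation after their values were seen.

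Further comparisons asked what the rule had not: how the genes stood at PEG 3 h against PEG 1 h, and how root and shoot differed. The tests were fitted over all genes with edgeR's robust quasi-likelihood F test and Benjamini-Hochberg adjustment. The same libraries had entered the rule, and its level floor was set at 3 h, so the counts over the 73 genes are a description beside the share of all genes. In root, 28 of the 73 were higher at PEG 3 h than at PEG 1 h (5.57% of 10941 genes tested) and 6 were lower (8.58%). The median log2 fold change was 0.43 over the 73 and -0.02 over all genes tested. In shoot, 21 were higher (2.06% of 13769) and none was lower (1.63%), with medians of 0.57 and 0.01. At an unadjusted p under 0.05 the test called 45 of the 73 in root (27.5% of all genes tested) and 44 in shoot (16.9%), in either direction. Of the 59 genes that passed the level floor at every PEG time of both organs, 24 were called in root and 14 in shoot, in either direction. Over all genes tested, which were not held to that floor, 14.1% were called in root and 3.68% in shoot.

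Higher at 3 h than at 1 h in both organs were 11 genes, against 0.814% of the 9455 genes tested in both organs. Another 17 were higher in root and not called in shoot (4.96%), 10 were higher in shoot and not called in root (1.49%), 6 were lower in root and not called in shoot (7.86%), and 29 were called in neither (83%). The difference between the organs in this contrast was not tested. Without any single library 26 of the 34 root calls held, but 4 of the 21 shoot calls, those of MAPKKK18, AT2G28400, HSFA6B and DIP2. AT3G03341, annotated as a cold-regulated protein, had 128, 94.3 and 68.8 normalized counts at root PEG 3 h and 5.31, 8.78 and 5.48 at 1 h, a difference of 3.76 ± 0.32 (log2, SE; adjusted p = 6.53e-07) by edgeR. In shoot it had 77.5, 99.5 and 98.4 at 3 h and 4.87, 2.57 and 33.8 at 1 h, 2.76 ± 0.58 (log2, SE; adjusted p = 0.0243). In water it had 3.09, 1.66 and 2.95 in root and 4.30, 3.90 and 2.16 in shoot. The shoot call did not hold (adjusted p 0.053 to 0.0936) without any shoot PEG 3 h library or shoot PEG 1 h replicate 1 or 2. HAI2 was higher at root 3 h by 2.94 ± 0.38 (log2, SE; adjusted p = 0.000146). The plant cupredoxin gene AT4G33930 had 89.0, 72.2 and 41.1 at root PEG 3 h and 7.44, 5.59 and 8.21 at 1 h, 3.30 ± 0.38 (log2, SE; adjusted p = 1.39e-05). AT1G04047, an RNA without a named product, had 50.3, 43.2 and 81.1 at root PEG 3 h and 5.31, 6.39 and 2.74 at 1 h, 3.40 ± 0.41 (log2, SE; adjusted p = 2.07e-05). All 4 root calls held without any single library. At root PEG 1 h every library of AT3G03341, AT4G33930 and AT1G04047 was under 10, the level the rule asked for at 3 h only. Such genes entered the set through their level at 3 h, so their p-values for 3 h against 1 h are a description and not support. The same holds in either organ for any gene with a PEG 1 h mean under 10. Among them were HSFA6B in root and AT5G05220 and AT3G48510 in shoot.

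In shoot, MAPKKK18 was higher at 3 h than at 1 h by 2.75 ± 0.41 (log2, SE; adjusted p = 0.00415), and its call held without any single library. AT5G05220, uncharacterized, had 43.6, 36.9 and 39.4 at shoot PEG 3 h and 2.92, 0 and 13.4 at 1 h, 2.88 ± 0.54 (log2, SE; adjusted p = 0.00806). That call ended without shoot PEG 1 h replicate 1 (adjusted p = 0.0556). The mean of AT5G05220 at shoot PEG 1 h was under 10, so its p-values here are a description and not support. HAI1 was higher by 2.46 ± 0.52 (log2, SE; adjusted p = 0.0211), a call that ended (adjusted p 0.0736 to 0.109) without shoot PEG 1 h replicate 1 or 2 or shoot PEG 3 h replicate 2 or 3. The other genes higher at 3 h in both organs were NCED3, HSFA6B, EDL3, NAC102, AT3G48510, AT5G15950 and AT5G63350. NCED3 was higher by 1.71 ± 0.32 (log2, SE; adjusted p = 0.00205) in root and by 1.45 ± 0.36 (log2, SE; adjusted p = 0.0473) in shoot. The NCED3 call in shoot ended (adjusted p 0.0629 to 0.222) without any shoot water or shoot PEG 3 h library, shoot PEG 1 h replicate 1 or 2 or shoot PEG 2 h replicate 2. HSFA6B was higher by 2.05 ± 0.32 (log2, SE; adjusted p = 0.00156) in shoot, where its call held without any single library. In root it was higher by 1.88 ± 0.56 (log2, SE; adjusted p = 0.0352), a call that ended (adjusted p 0.0914 to 0.239) without root PEG 1 h replicate 1 or 3 or root PEG 3 h replicate 2. Every root PEG 1 h library of HSFA6B was under 10, so its root p-values are a description and not support. Log2 fold changes of EDL3, NAC102, AT3G48510, AT5G15950 and AT5G63350 were 1.45, 1.61, 1.42, 1.37 and 1.76 in root. In shoot these 5 had 1.53, 0.70, 2.12, 0.81 and 1.65, and every one of these shoot calls ended without shoot PEG 1 h replicate 1 or 2 or shoot PEG 3 h replicate 2. The NAC102 and AT5G15950 calls in shoot also ended without shoot PEG 3 h replicate 1 or 3, and that of AT5G15950 without shoot water replicate 2 or 3 (adjusted p 0.0504 to 0.245 over all of these). In root, AT5G15950 ended (adjusted p 0.0743 to 0.0763) without root PEG 1 h replicate 1 or root PEG 3 h replicate 3. DREB2A and CBF4, called in shoot alone at 1.25 and 1.87, ended without shoot PEG 1 h replicate 1 or 2 (adjusted p 0.051 to 0.0521). The shoot count of 21 turned on single libraries. It was 39, with 38 higher and 1 lower, without PEG 1 h replicate 3, but 4 and 5 without replicates 1 and 2 of that group, and 12, 8 and 13 without PEG 3 h replicates 1, 2 and 3. With a fit term for the digit of the library code, which separates shoot PEG 3 h wholly from PEG 1 h, it was 7.

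The 6 genes lower at root 3 h than at 1 h included known early-response regulators. SZF1 had 431, 340.5 and 219 at root PEG 3 h and 759, 856 and 1002 at 1 h, -1.38 ± 0.20 (log2, SE; adjusted p = 0.000476), and kept its call without any single library. WRKY33 changed by -0.75 ± 0.15 (log2, SE; adjusted p = 0.00287) and kept its call likewise. The calmodulin-binding protein AT2G26190 changed by -0.52 ± 0.16 (log2, SE; adjusted p = 0.0352), a call that ended (adjusted p 0.057 to 0.23) without root water replicate 2, root PEG 1 h replicate 1 or 2, root PEG 2 h replicate 2 or 3 or root PEG 3 h replicate 2 or 3. ERF13 had 335, 182 and 76.3 at root PEG 3 h and 514, 487 and 599.5 at 1 h, -1.42 ± 0.40 (log2, SE; adjusted p = 0.0442). Its call ended (adjusted p 0.0638 to 0.151) without any root water, root PEG 1 h or root PEG 2 h library or root PEG 3 h replicate 2. AT4G29780, annotated as a nuclease, changed by -1.33 ± 0.32 (log2, SE; adjusted p = 0.0208), a call that ended (adjusted p 0.0599 to 0.0942) without any root PEG 1 h library or root PEG 3 h replicate 2. AT1G07135, a glycine-rich protein, changed by -1.02 ± 0.28 (log2, SE; adjusted p = 0.0381). That call ended (adjusted p 0.0584 to 0.134) without any root PEG 1 h or root PEG 2 h library, root water replicate 2 or root PEG 3 h replicate 2 or 3. Root PEG 3 h replicate 3 was the lowest of its group for 50 of the 73 genes, and for 41.3% of genes past the level floor. In shoot these 6 genes were not called, at log2 fold changes between -0.18 (AT2G26190) and 0.57 (ERF13).

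**Figure D3:**
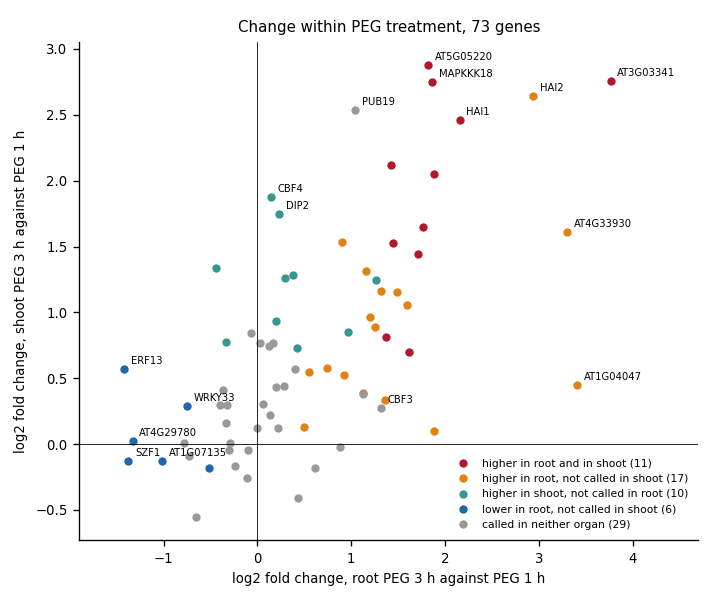
Log2 fold change of PEG 3 h against PEG 1 h in root (x axis) and in shoot (y axis), with 1 point per gene and colours for the calls at adjusted p under 0.05. Of the 73 genes, 11 are higher at 3 h in both organs, 6 are lower in root, and none is lower in shoot.

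In water many of the 73 genes differed between the organs. Root was higher than shoot for 28 (37.8% of 15472 genes tested) and lower for 14 (47.6%), and 31 were not called, where 85.3% of all genes were called. At an unadjusted p under 0.05 the test called 44 of the 73, against 85.9% of all genes tested. The median over the genes tested was -0.50 on the log2 scale, and the median over the 73 was 0.18. AT3G48510 had 8.50, 9.15 and 5.90 normalized counts in root water and 0 in all 3 shoot water libraries, which puts root at least 2.42-fold higher. AZF2 had 128, 117 and 111 in root and 6.45, 21.5 and 28.1 in shoot, 2.90 ± 0.34 (log2, SE; adjusted p = 2.62e-08). AT3G62260 had 136, 151 and 131 in root and 16.1, 25.4 and 26.0 in shoot, 2.86 ± 0.31 (log2, SE; adjusted p = 3.49e-09). HSFC1 had 141, 146 and 112 in root and 14.0, 31.2 and 23.8 in shoot, 2.75 ± 0.37 (log2, SE; adjusted p = 6.05e-07). The libraries of the 2 organs did not overlap for any of these genes.

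On the shoot side, BT1 had 6.96, 9.98 and 8.11 in root water and 199, 310.1 and 254 in shoot water, -4.68 ± 0.41 (log2, SE; adjusted p = 6.31e-10). AT3G56880, a VQ motif protein, had 10.8, 22.5 and 13.3 in root and 205, 211 and 167 in shoot, -3.41 ± 0.32 (log2, SE; adjusted p = 3.23e-10). IAA2 had 1.55, 3.33 and 2.95 in root and 20.4, 40.0 and 37.9 in shoot, -3.37 ± 0.51 (log2, SE; adjusted p = 3.89e-07). AT5G15950, an adenosylmethionine decarboxylase of polyamine synthesis, had 0.773, 4.16 and 2.21 in root and 25.8, 23.4 and 31.4 in shoot, -3.22 ± 0.47 (log2, SE; adjusted p = 1.3e-07). All 8 genes named here kept their call without any single library. Of the 5 NAC factors, 3 were called higher in root water and none lower. Of the 3 clade A phosphatases, 2 were called higher, and of the 5 CBF and DREB factors CBF4 was higher and DREB2A lower. The 2 ubiquitin ligases, the 2 C2H2 zinc fingers, 2 of the 3 heat shock factors and CIPK5 were called higher too, and ACS6 and SZF1 lower. Over all genes tested, 37.8% were higher in root water and 47.6% lower, so these small counts are a description. The median absolute gap between root and shoot over the 73 genes was 0.96 (log2) in water and 1.07, 1.19 and 0.97 at PEG 1, 2 and 3 h, and 1.24, 1.12, 1.21 and 1.06 over the 8196 genes past the level floor.

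**Figure D4:**
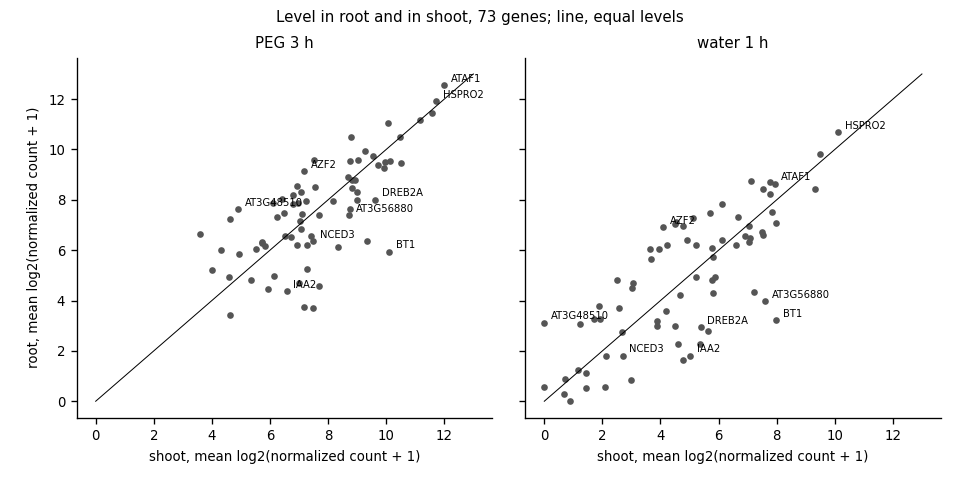
Mean log2(normalized count + 1) in root (y axis) against shoot (x axis) at PEG 3 h (left) and in water (right), with 1 point per gene and a line of equal levels. AT3G48510 and AZF2 lie on the root side and BT1, AT3G56880 and IAA2 on the shoot side in both panels.

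The size of the response was called as different between root and shoot for few of the 73 genes. At 1 h the difference of the PEG effects, root minus shoot, was above 0 for 2 (2.72% of 15472 genes tested) and below 0 for 2 (5.16%), 7.89% in either direction. At 2 h it was above 0 for 1 (3.35%) and below 0 for 2 (4.16%), 7.5% in either direction. At 3 h it was above 0 for 2 (10.1%) and below 0 for 6 (6.73%), 16.8% in either direction. The counts were 0, 0 and 0 with a fit term for the digit of the library code. The 1 h count of 4 was 2 without root water replicate 3, root PEG 1 h replicate 2 or 3 or shoot water replicate 1. The 2 h count of 3 was 0 without shoot water replicate 1. It was 1 without any root water library, root PEG 1 h replicate 1 or 2, root PEG 2 h replicate 2, shoot water replicate 3, shoot PEG 1 h replicate 1 or 2 or shoot PEG 3 h replicate 2. The 3 h count of 8 was 3 without shoot water replicate 1. It was 4 without any root water library, root PEG 3 h replicate 3, shoot water replicate 3 or shoot PEG 3 h replicate 1 or 2, and 5 without root PEG 1 h replicate 1, root PEG 2 h replicate 2 or shoot PEG 1 h replicate 2. Without shoot PEG 1 h replicate 3 there were 11. At an unadjusted p under 0.05 there were 17, 10 and 21 of the 73 at 1, 2 and 3 h, against 21.6%, 21.5% and 29.4% of all genes tested. The 3 times share their water libraries. A response not called as different is not shown to be equal, and the rule asked for a difference of at least 1 in both organs. AT3G56880, the VQ motif protein, had the larger response in root at every time. Its difference was 1.99 ± 0.41 (log2, SE; adjusted p = 0.00358) at 1 h, 1.56 ± 0.41 (log2, SE; adjusted p = 0.0199) at 2 h and 2.35 ± 0.40 (log2, SE; adjusted p = 0.000245) at 3 h. It had 142, 181 and 181 at root PEG 3 h and 10.8, 22.5 and 13.3 in root water, against 431, 437 and 398 at shoot PEG 3 h and 205, 211 and 167 in shoot water. Its level was lower in root than in shoot in PEG 3 h as in water. The 2 h call ended (adjusted p 0.0521 to 0.0585) without root PEG 2 h replicate 1 or shoot water replicate 1, and those at 1 and 3 h held without any single library.

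AT1G22190 had the smaller response in root at all 3 times, by -0.87 ± 0.27 (log2, SE; adjusted p = 0.0369) at 1 h and -1.02 ± 0.27 (log2, SE; adjusted p = 0.0146) at 2 h, and by -0.89 ± 0.27 (log2, SE; adjusted p = 0.0187) at 3 h. It had 1589.8, 1249.7 and 1434 at root PEG 1 h and 453, 448 and 372 in root water, and 1059, 1115 and 1389 at shoot PEG 1 h and 166, 256 and 241 in shoot water. PEG levels of the 2 organs overlapped, while root water stood above shoot water in every library. The 1 h call ended (adjusted p 0.0956 to 0.421) without any root water, root PEG 1 h or shoot PEG 1 h library, root PEG 2 h replicate 2, shoot water replicate 1 or 3, shoot PEG 2 h replicate 3 or shoot PEG 3 h replicate 2. The 2 h call ended (adjusted p 0.0677 to 0.321) without 13 of these 14 libraries, root PEG 1 h replicate 3 being the exception. The 3 h call ended (adjusted p 0.0502 to 0.144) without any root water library, root PEG 1 h replicate 1, root PEG 2 h replicate 2, root PEG 3 h replicate 3, shoot water replicate 1 or 3, shoot PEG 1 h replicate 2 or 3 or shoot PEG 3 h replicate 1 or 2. SZF1 had the larger response in root at 1 h, 1.35 ± 0.28 (log2, SE; adjusted p = 0.00289), a call that held without any single library. NAC032 had the smaller response in root at 1 h, -1.88 ± 0.56 (log2, SE; adjusted p = 0.0496), but its call ended (adjusted p 0.051 to 0.131) without any of 19 of the 24 libraries. The call held only without root PEG 1 h replicate 1, shoot PEG 1 h replicate 1 or 2 or shoot PEG 2 h replicate 1 or 3.

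At 3 h, PP2CA had the smaller response in root, -1.55 ± 0.35 (log2, SE; adjusted p = 0.00327). It had 931, 946 and 685 at root PEG 3 h and 239, 230.5 and 222 in root water, and 773, 707 and 786 at shoot PEG 3 h and 80.6, 60.5 and 66.0 in shoot water. The PEG levels of the 2 organs overlapped while the water levels did not, and the call held without any single library. HSFC1 had the smaller response in root by -1.68 ± 0.46 (log2, SE; adjusted p = 0.0158), a call that ended without shoot water replicate 1 (adjusted p = 0.0628). AT2G28400, a DUF584 protein, differed by -1.25 ± 0.39 (log2, SE; adjusted p = 0.0246), a call that ended (adjusted p 0.0555 to 0.135) without root water replicate 2 or 3, root PEG 3 h replicate 3, shoot water replicate 2 or 3 or shoot PEG 3 h replicate 3. CRF5 had the larger response in root, 1.26 ± 0.41 (log2, SE; adjusted p = 0.0327), a call that ended (adjusted p 0.0518 to 0.21) without root water replicate 1, root PEG 3 h replicate 1, shoot water replicate 1 or shoot PEG 3 h replicate 1 or 2. AT5G63130, a Phox and Bem1p domain protein, differed by -1.30 ± 0.43 (log2, SE; adjusted p = 0.0339). That call ended (adjusted p 0.0503 to 0.161) without any root water library, root PEG 1 h replicate 1, root PEG 2 h replicate 2, root PEG 3 h replicate 3, shoot water replicate 1 or 3, shoot PEG 1 h replicate 2 or 3, shoot PEG 2 h replicate 3 or shoot PEG 3 h replicate 1 or 2. The phosphatase AT3G62260 differed by -1.20 ± 0.40 (log2, SE; adjusted p = 0.0394), a call that ended (adjusted p 0.0509 to 0.132) without any root water or shoot water library, root PEG 1 h replicate 1, root PEG 2 h replicate 2, root PEG 3 h replicate 2 or 3, shoot PEG 1 h replicate 2, shoot PEG 2 h replicate 1 or 3 or shoot PEG 3 h replicate 1 or 2. At 2 h, AT5G14730, uncharacterized, differed by -1.16 ± 0.32 (log2, SE; adjusted p = 0.0224). Its call ended (adjusted p 0.0519 to 0.252) without any root water, shoot water or shoot PEG 1 h library, root PEG 1 h replicate 1 or 2, root PEG 2 h replicate 2 or 3, shoot PEG 2 h replicate 1 or 3 or shoot PEG 3 h replicate 2.

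Promoters were read from the RefSeq genome TAIR10.1 around the annotated start of each gene, matched by locus tag, since the sources used here name no build. The 250 bases before the start are shown for 5 genes, chosen after the matches were seen. PUB19, NF-YB2 and PP2CA hold both of the motifs of the ABA and the dehydration pathway, MAPKKK18 holds the first only and AT3G60930 the second only. Capitals mark ACGTG (core of the ABA-responsive element) and CCGAC (core of the dehydration-responsive element) on either strand, so CACGT and GTCGG appear for the reverse strand. Each sequence runs 5′ to 3′ on the strand of its gene and matched the genome once.
PUB19 (chr1:22198016-22198265, plus strand): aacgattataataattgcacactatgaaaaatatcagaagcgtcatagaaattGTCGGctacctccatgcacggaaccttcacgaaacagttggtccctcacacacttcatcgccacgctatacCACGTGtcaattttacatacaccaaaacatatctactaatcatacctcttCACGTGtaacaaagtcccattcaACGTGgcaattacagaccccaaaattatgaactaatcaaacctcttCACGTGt
NF-YB2 (chr5:19308977-19309226, plus strand): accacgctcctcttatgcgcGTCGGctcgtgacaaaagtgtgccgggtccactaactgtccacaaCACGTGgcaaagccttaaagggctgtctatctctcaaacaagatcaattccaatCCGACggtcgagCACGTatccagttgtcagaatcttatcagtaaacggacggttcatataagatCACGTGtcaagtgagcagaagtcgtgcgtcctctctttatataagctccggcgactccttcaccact
PP2CA (chr3:3585851-3586100, minus strand): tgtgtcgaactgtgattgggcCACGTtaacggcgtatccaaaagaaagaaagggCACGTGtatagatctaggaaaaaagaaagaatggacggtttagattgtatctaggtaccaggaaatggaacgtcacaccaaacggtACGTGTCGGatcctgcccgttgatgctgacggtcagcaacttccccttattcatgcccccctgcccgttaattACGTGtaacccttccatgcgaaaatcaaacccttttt
MAPKKK18 (chr1:1469291-1469540, plus strand): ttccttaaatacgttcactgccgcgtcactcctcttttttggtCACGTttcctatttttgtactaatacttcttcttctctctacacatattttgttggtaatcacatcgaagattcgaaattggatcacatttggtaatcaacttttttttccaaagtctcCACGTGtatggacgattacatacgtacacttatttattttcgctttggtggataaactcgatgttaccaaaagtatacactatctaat
AT3G60930 (chr3:22513777-22514026, plus strand): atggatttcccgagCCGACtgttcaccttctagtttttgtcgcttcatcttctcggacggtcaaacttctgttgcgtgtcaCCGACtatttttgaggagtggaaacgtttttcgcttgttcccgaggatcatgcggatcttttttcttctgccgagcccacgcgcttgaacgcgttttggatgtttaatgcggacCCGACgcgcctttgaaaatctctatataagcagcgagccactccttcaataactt

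In PUB19 the capitals hold 3 copies of CACGTG, each of which counts as an ACGTG match on both strands, 1 further ACGTG and 1 CCGAC. In PP2CA 1 ACGTG and 1 CCGAC of opposite strands share a base, and AT3G60930 holds 3 copies of CCGAC. Over the window of 250 bases before to 50 after the start, ACGTG was found in 29 of the 73 promoters (39.7%) and in 28.5% of the 18124 promoters of the table. CACGTG, the G-box that contains it, was found in 17 (23.3%) against 9.0%. CCGAC was found in 24 (32.9%) against 16.4%. Both ACGTG and CCGAC were in 11 promoters, ACGTG without CCGAC in 18, CCGAC without ACGTG in 13 and neither in 31. CGCG, the core of the site of calmodulin-binding CAMTA factors, was found in 19 promoters (26.0%) against 14.0%, and AAATATCT, the evening element of clock-run genes, in 11 (15.1%) against 6.06%. GAANNTTC, a core of the heat shock element, was found in 13 (17.8%) against 11.3%, and TTGAC, the core of the W-box of WRKY factors, in 42 (57.5%) against 51.0%. Both strands were searched.

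In the 1000 bases before the start, CACGTG was found in 39.7% of the 73 promoters against 16.2% of all, ACGTG in 67.1% against 55.6% and CGCG in 53.4% against 33.3%, while CCGAC was found in 41.1% against 39.2%. The gap for CCGAC was thus seen in the 300-base window and nearly absent in the longer one. These shares are descriptions of letters near the start, with no test, and a match is not a binding site. The CBF3 promoter window held none of the first 3 motifs.

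**Figure D5:**
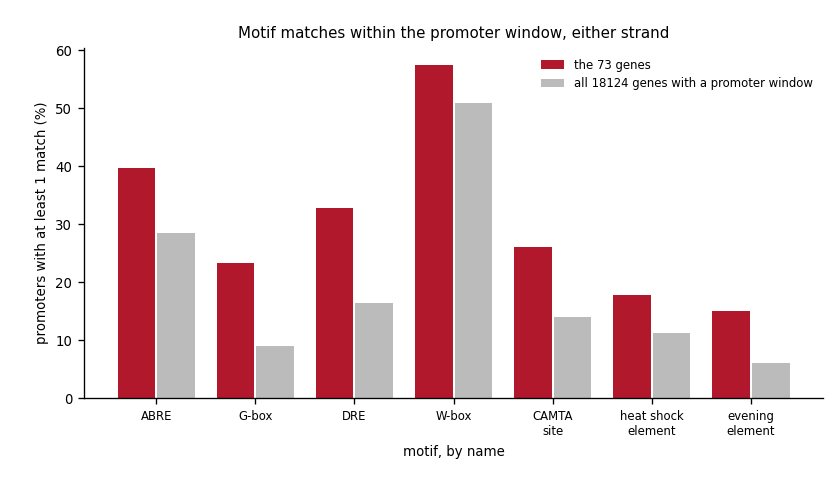
Share of promoters (y axis, %) with at least 1 match of each motif (x axis, by name) on either strand, from 250 bases before to 50 after the annotated start, for the 73 genes (red) and for all 18124 genes with a window (grey). The G-box is in 23.3% of the 73 promoters and 9.0% of all, and the core of the dehydration-responsive element in 32.9% and 16.4%.

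The 73 genes were spread over the chromosomes, with 19, 10, 15, 9 and 20 on chromosomes 1 to 5, and some lay side by side in RefSeq. CBF2, CBF3 and CBF1 form a row on chromosome 4. AT1G04047 begins 247 bases after the end of ATAF1 on the same strand, and both overlap AT1G01725 on the opposite strand. The values of AT1G04047 at root PEG 3 h, 50.3, 43.2 and 81.1, and in root water, 0, 0.832 and 0, cannot be told apart from reads of its neighbours with these counts. AT1G05183, another RNA without a named product, overlaps AT1G15690 on the same strand and AT1G15700 on the opposite strand. It had 20.6, 35.4 and 34.7 at root PEG 3 h and 0 in all 3 root water libraries. In all, 14 of the 73 genes overlap another RefSeq locus and 11 overlap one that is in the table, among them ATAF1, ATAF2, NAC102, HSFC1, WRKY33, MYC2, NF-YB2, AT2G44130 and AT3G03341. No source used here gives the strand setting of the counting, so reads of such pairs may be mixed.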

How the data were processed

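Counts per gene by MARS-seq were deposited for all 24 libraries by the authors, whose tools were bcl2fastq, cutadapt, STAR 2.4.2a, HTSeq and DESeq2 per the submitters' processing notes. Library size scales both depth and precision, and intervals from counts cover counting error only. The deposited normalized values are a signal, each equal to its count divided by 1 factor per library, and the authors' deposited log2 values, DESeq2's regularized logarithm per the file headers, were not used. Groups came from the sample labels.

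The 73 genes, the gene lists and the tests were chosen with earlier results of these data known. Group means of log2(normalized count + 1) chose the genes. Tests used edgeR 4.0.16 in R 4.3.3 on the counts, with TMM scaling, filterByExpr, robust quasi-likelihood F tests and Benjamini-Hochberg adjustment over all genes tested at adjusted p under 0.05, fitted per organ for PEG against water and for PEG 3 h against 1 h, and over both organs for root against shoot and for the difference of the responses. The tests were tried on simulated counts. Each SE was derived as the absolute log2 fold change divided by the square root of the F statistic, as edgeR gives none. DESeq2 1.42.0, other scalings and filters and leaving out each library were alternatives.

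Genes named were list members (up to 6 per list), the 12 with the largest smallest difference, the 8 with the highest mean at PEG 3 h, the 4 highest and 4 lowest called in each contrast and 3 on each side of the threshold, with others named for their annotation. RefSeq held 18125 of 18240 identifiers. Promoter windows were cut here from the RefSeq genome. The main tests did not pair libraries by replicate letter, and p-values measure the spread between pools.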

Additional observations from a re-analysis of the deposited data

Results flagged for a closer look

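The results flagged are those whose PEG response, tested as root minus shoot over all genes with edgeR's quasi-likelihood test, was called as different between the organs. All are log2 differences of the responses, each with 3 libraries per group, and all calls ended with a fit term for the digit of the library code. That digit follows the groups in part, so its part in these differences cannot be told apart.

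At 1 h the response was larger in root for AT3G56880 (1.99) and SZF1 (1.35) and smaller in root for NAC032 (-1.88) and AT1G22190 (-0.87). At 2 h it was larger in root for AT3G56880 (1.56) and smaller for AT5G14730 (-1.16) and AT1G22190 (-1.02). At 3 h it was larger in root for AT3G56880 (2.35) and CRF5 (1.26), and smaller for HSFC1 (-1.68), PP2CA (-1.55), AT5G63130 (-1.30), AT2G28400 (-1.25), AT3G62260 (-1.20) and AT1G22190 (-0.89). AT3G56880 at 1 and 3 h, SZF1 and PP2CA were called without any single library.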

How the results depend on the processing

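Of 33 tested results of single genes, 14 kept their call under every alternative run, 19 lost it under at least 1 and none reversed. A threshold of 1.5 left 35 genes in the set. Without the low-count filter 1 gene was called for the root minus shoot response at 2 h. The library code digit as a term left 7 genes for PEG 3 h against 1 h in shoot, 0, 0 and 0 for the root minus shoot response at 1, 2 and 3 h, and 58, 54 and 70 list genes in root. The cause was not tested.

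Leaving out 1 library at a time gave 66 genes in the set without shoot PEG 1 h replicate 3 and 83 without root PEG 1 h replicate 3, and 51 of the 73 stayed in the set whichever library was left out. Calls for PEG 3 h against 1 h ranged from 27 to 36 in root and from 4 to 39 in shoot, and for root against shoot in water from 41 to 48. Calls for the root minus shoot response ranged from 2 to 5, 0 to 4 and 3 to 11 at 1, 2 and 3 h. List genes called ranged from 75 to 101, 105 to 131 and 120 to 140 in root and from 51 to 82, 83 to 132 and 142 to 157 in shoot.

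Libraries with the same replicate letter did not deviate together within an organ (correlations of -0.157 to 0.251 in root and -0.401 to 0.310 in shoot). Between root and shoot of the same time and letter the correlations were -0.197 to 0.111 over 12 pairs. The labels do not say whether a letter marks the same seedling pool in both organs, and weak correlations cannot exclude it. The main tests did not pair the organs. With a replicate block the calls were 40 and 18 for PEG 3 h against 1 h in root and shoot, 43 in water and 4, 3 and 9 for the root minus shoot response. That block was a term for the replicate letter, shared by all groups of a fit. It did not pair root and shoot of the same time. Depth limits the shoot at 2 h, where 1 library held 343397 counts.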
